A study of Arabidopsis thaliana with 4 samples.

Results

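The type-A response regulators (ARRs) of Arabidopsis thaliana are small proteins that feed back on signalling by the plant hormone cytokinin, and their transcripts were compared in seedlings of the mutants hdp3-2 and asil1-2 with those of the wild-type strain Col-0. The 10 genes were taken by locus identifier, with no cut on a measured value: ARR3, ARR4, ARR5, ARR6, ARR7, ARR8, ARR9, ARR15, ARR16 and ARR17. They were chosen with earlier results of these data known. All 10 were found among the 33557 genes of each deposited table, and 9 of them were tested by the authors in both mutants. The exception was ARR17, whose level was too low.

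Cytokinin is sensed by membrane-bound histidine kinases, which pass phosphate through shuttle proteins to the type-B ARRs, DNA-binding factors in the nucleus. Type-B ARRs switch on the type-A ARR genes within minutes of hormone treatment, and the type-A proteins, which have a phosphate-accepting receiver domain but no DNA-binding domain, dampen the pathway in turn. Type-A ARR transcripts are therefore widely used as a readout of cytokinin response, and in the shoot apical meristem several of them are held down by the stem-cell factor WUSCHEL.

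Each mutant was profiled by RNA sequencing in 2 libraries from whole seedlings of 14 days. They were raised on sucrose medium at 22 °C in long days (16 h light), with 3 days of cold stratification at 4 °C. The study, which concerns a Harbinger transposase taken over by its host and its trihelix partners, asks whether HDP3 and the trihelix protein ASIL1 affect overlapping sets of genes. Both mutants are named by a single allele, and the labels describe neither the lesion nor any other allele in the lines. Beyond the cold and culture given above, they describe no treatment. The Col-0 libraries were deposited as a separate series, and the sources used here give neither their number nor their culture, only the same age of seedlings, so a difference between mutant and Col-0 and one between sets of libraries cannot be told apart. The authors' tables hold 1 FPKM value (sequenced fragments per unit of transcript length and of library size) per gene and genotype, combined over libraries, so depth and the values of single libraries are unknown, and the Col-0 values of the asil1-2 table stand at 1.02 times those of the hdp3-2 table because each was scaled on its own. A gene is said to be called, to have risen or to have fallen where the authors' Cuffdiff q was under 0.05, and each log2 fold change, mutant over Col-0, is given with its standard error (SE), obtained by dividing it by the authors' test statistic. The labels do not state that paired libraries were made from plants raised apart, so these p-values measure the spread between libraries, which may be technical. The labelled tissue was checked on marker genes: the 5 leaf markers summed to 24643 FPKM in hdp3-2 and 26520 FPKM in Col-0, and to 27010 FPKM in asil1-2 and 27021 FPKM in Col-0, and all 6 root markers were tested. Of the shoot meristem markers, CLV3 was listed at 0 in every genotype and WUS at 0 in both mutants and at 0.0247 FPKM in Col-0 in the hdp3-2 table. KNAT1 was detected, with 3.79 FPKM in hdp3-2, against 3.17 FPKM in Col-0, and 3.16 FPKM in asil1-2, against 3.23 FPKM in Col-0. STM had 0.415 FPKM in hdp3-2, against 0.410 FPKM in Col-0, and 0.677 FPKM in asil1-2, against 0.418 FPKM in Col-0. ASIL1 (AT1G54060) stood at 4.16 FPKM in asil1-2 and 22.9 FPKM in Col-0, while the hdp3-2 label has no such check here because the files pair no locus with the name HDP3.

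In hdp3-2 seedlings 4 type-A ARR genes fell and none rose. The genes that fell were ARR6, ARR7, ARR9 and ARR15, with levels from 1.93-fold to 5.03-fold lower than in Col-0. In asil1-2 seedlings 5 fell and none rose, namely the same 4 and ARR5, from 1.65-fold to 2.66-fold lower. With the authors' statistic read as a standard normal value in place of their p, 1 member (ARR7) was called in hdp3-2 and 2 (ARR6 and ARR7) in asil1-2, among 147 and 438 calls over all genes. With a log2 fold change of at least 1 in size, 3 (ARR6, ARR7 and ARR15) were called in each, among 274 and 453. Against the counts at a q under 0.05, 4 of 9 and 5 of 9 tested members, lower calls made up 1.78% of the 20177 genes tested in hdp3-2 and 5.72% of the 20205 tested in asil1-2. Higher calls made up 1.3% and 2.71% of the same genes. Both comparisons use the same Col-0 libraries, so the values of the mutants are not independent of each other.

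**Figure D1:**
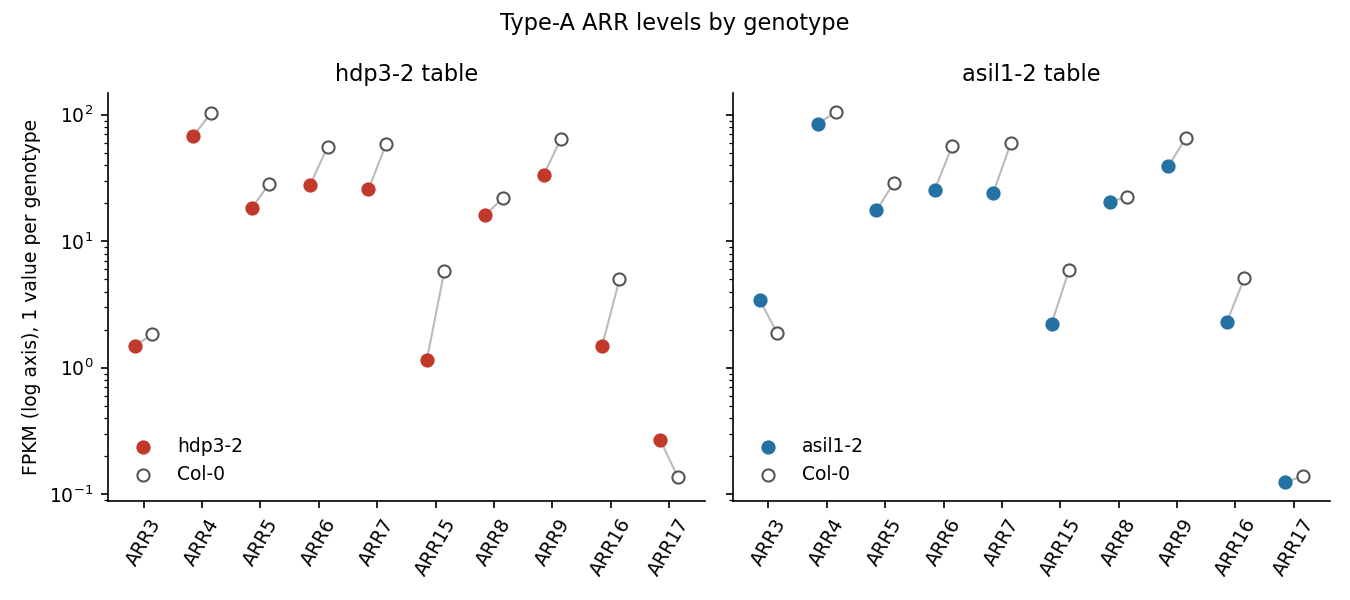
FPKM of the 10 type-A ARR genes on a log axis, 1 authors' value per genotype, in the hdp3-2 table (left, red) and the asil1-2 table (right, blue), with Col-0 of the same table as open circles. Filled points lie below their Col-0 partner for all genes except ARR17 in hdp3-2 and ARR3 in asil1-2.

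Before any contrast, the family had a clear order of levels. ARR4 was the most abundant member in each genotype, with 67.6 FPKM in hdp3-2, 84.8 FPKM in asil1-2 and 103 FPKM in Col-0 in the hdp3-2 table, followed by ARR9. ARR6, ARR7, ARR5 and ARR8 came next, at 16.0 to 27.7 FPKM in hdp3-2, 17.6 to 25.6 FPKM in asil1-2 and 21.9 to 58.3 FPKM in Col-0 of the hdp3-2 table. ARR3, ARR15 and ARR16 stayed under 6 FPKM everywhere, and ARR17 was last in each genotype. The order was not the same in all genotypes: ARR7 stood below ARR6 in both mutants and above it in Col-0, ARR15 likewise below ARR16 in both mutants and above it in Col-0, ARR8 above ARR5 in asil1-2 alone, and ARR3 above ARR16 and ARR15 in both mutants and below them in Col-0. The spread of a single level over libraries is not given, so it was not tested whether neighbours in this order differ. The 10 members summed to 193 FPKM in hdp3-2, against 345 FPKM in Col-0 of that table, and to 220 FPKM in asil1-2, against 352 FPKM. ARR4 made up 35.0% of that sum in hdp3-2, 38.6% in asil1-2 and 29.9% in Col-0.

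ARR7 and ARR15 are each other's closest relatives in the family, negative regulators that act in the shoot meristem and in the embryonic root. ARR7 (AT1G19050) had 25.7 FPKM in hdp3-2, against 58.3 FPKM in Col-0, and 24.0 FPKM in asil1-2, against 59.4 FPKM in Col-0. Both mutants thus lay well under their Col-0 value. The log2 fold change of ARR7 was -1.18 ± 0.30 (SE) in hdp3-2 and -1.31 ± 0.27 in asil1-2, and the q in the authors' deposited tables was 0.00374 and 0.00165 by their Cuffdiff test. ARR15 (AT1G74890) had 1.16 FPKM in hdp3-2, against 5.82 FPKM in Col-0, and 2.23 FPKM in asil1-2, against 5.93 FPKM in Col-0. It had the lowest log2 fold change of the tested members in both comparisons, at -2.33 ± 0.71 in hdp3-2 and -1.41 ± 0.59 in asil1-2. Its q in the authors' deposited tables was closer to the threshold, at 0.0222 in hdp3-2 and 0.0262 in asil1-2, and its low level gives it wide errors.

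ARR5 and ARR6 form another pair of close relatives, and ARR5 is the member most often used as a cytokinin reporter. ARR6 (AT5G62920) had 27.7 FPKM in hdp3-2, against 56.0 FPKM in Col-0, and 25.6 FPKM in asil1-2, against 57.1 FPKM in Col-0. Its log2 fold change was -1.02 ± 0.30 in hdp3-2 and -1.16 ± 0.26 in asil1-2, with a q of 0.00374 and 0.00165 in the authors' deposited tables. ARR5 (AT3G48100) moved less: it had 18.3 FPKM in hdp3-2, against 28.4 FPKM in Col-0, and 17.6 FPKM in asil1-2, against 29.0 FPKM in Col-0. The mutants lay close together and both under Col-0. ARR5 fell in asil1-2, with a log2 fold change of -0.72 ± 0.26 and a q of 0.00303 in the authors' deposited table. In hdp3-2 its value was -0.64 ± 0.29, with an unadjusted p of 0.0024 and a q of 0.0679 by the authors' Cuffdiff test, which missed the threshold.

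ARR8 and ARR9 are a further pair of close relatives among these feedback regulators. ARR9 (AT3G57040) had 33.5 FPKM in hdp3-2, against 64.7 FPKM in Col-0, and 39.1 FPKM in asil1-2, against 65.9 FPKM in Col-0. Its log2 fold change was -0.95 ± 0.28 in hdp3-2 and -0.76 ± 0.24 in asil1-2, with a q of 0.00374 and 0.00165 in the authors' deposited tables. ARR8 (AT2G41310) was not called in either mutant. It had 16.0 FPKM in hdp3-2, against 21.9 FPKM in Col-0, and 20.6 FPKM in asil1-2, against 22.3 FPKM in Col-0. The log2 fold change of ARR8 was -0.45 ± 0.29 in hdp3-2 and -0.12 ± 0.25 in asil1-2, with a q of 0.287 and 0.791 in the authors' deposited tables. Whether ARR8 and ARR9 differ in their response was not tested.

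ARR3 and ARR4, which in Arabidopsis also affect the period of the circadian clock, had no call. ARR4 (AT1G10470) had 67.6 FPKM in hdp3-2, against 103 FPKM in Col-0, and 84.8 FPKM in asil1-2, against 105 FPKM in Col-0. Its values were lower in both mutants by less than in the members that fell. ARR4 had a log2 fold change of -0.61 ± 0.28 in hdp3-2, where its q of 0.0620 in the authors' deposited table lay just over the threshold, and of -0.31 ± 0.24 in asil1-2, with a q of 0.304. ARR3 (AT1G59940) was the member with opposite signs: it had 1.49 FPKM in hdp3-2, against 1.84 FPKM in Col-0, but 3.43 FPKM in asil1-2, against 1.88 FPKM in Col-0. Its log2 fold change was -0.30 ± 0.65 in hdp3-2 and 0.87 ± 0.53 in asil1-2, and its q of 0.908 and 0.173 in the authors' deposited tables passed in neither.

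ARR16 and ARR17 have the shortest coding sequences of the family. ARR16 (AT2G40670) had 1.48 FPKM in hdp3-2, against 4.99 FPKM in Col-0, and 2.28 FPKM in asil1-2, against 5.09 FPKM in Col-0. Its log2 fold change was the next lowest of hdp3-2 after ARR15, at -1.76 ± 0.72. In asil1-2 it was -1.15 ± 0.61, behind ARR15, ARR7 and ARR6. With a q of 0.0951 and 0.0977 in the authors' deposited tables, neither was called. ARR17 (AT3G56380) had 0.268 FPKM in hdp3-2, against 0.136 FPKM in Col-0, and 0.124 FPKM in asil1-2, against 0.139 FPKM in Col-0. At this level the authors made no test, so its values say nothing about a change.

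**Figure D2:**
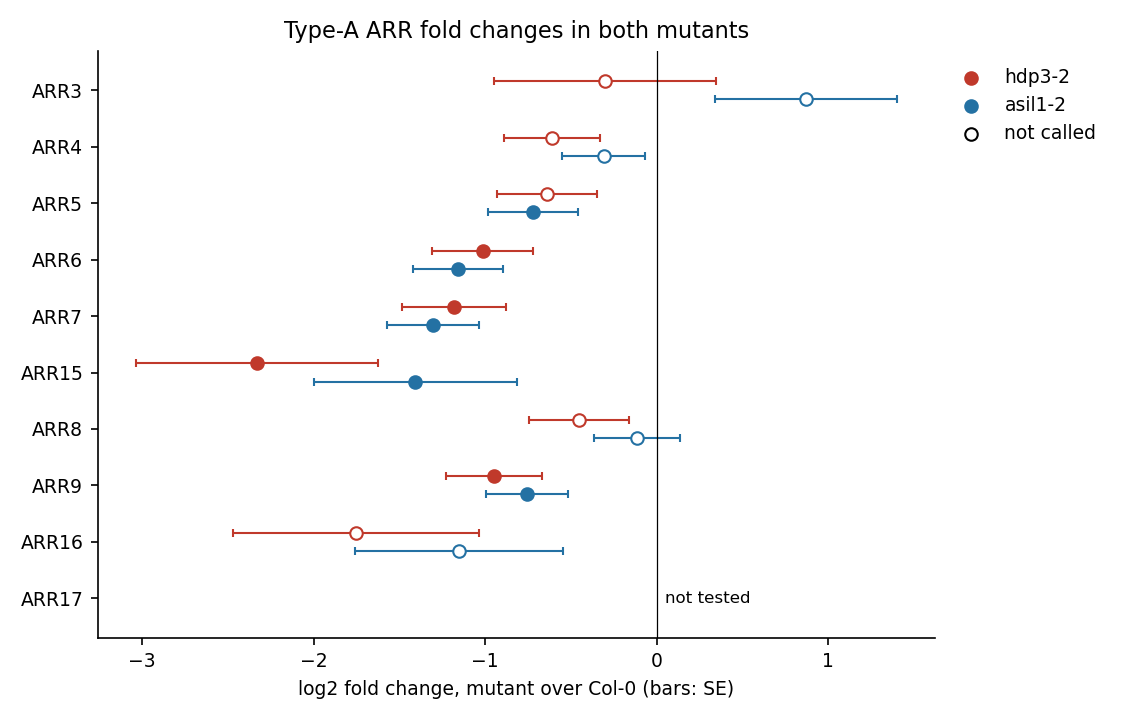
Log2 fold change over Col-0 of each type-A ARR gene in hdp3-2 (red) and asil1-2 (blue), with bars of 1 SE. Filled points are called at a q under 0.05, open points are not, and 17 of the 18 tested values lie below 0, the exception being ARR3 in asil1-2.

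The family can be set beside all genes of the same comparison. The log2 fold change was negative for 9 of 9 tested members in hdp3-2 and for 8 of 9 in asil1-2, beside 58.7% and 60.3% of all tested genes. The median over the tested members was -0.95 in hdp3-2 and -0.76 in asil1-2, and the median over all tested genes was -0.06 and -0.08. An unadjusted p under 0.05 with a lower level was found for 8 members in hdp3-2, where 8.43% of all tested genes met it, and for 6 in asil1-2, where 13.5% did. In asil1-2, 1 member, ARR3, had an unadjusted p under 0.05 with a higher level, 0.0273 by the authors' Cuffdiff test. The share of all tested genes with such a p and a higher level was not counted. Among all tested genes, 0.149% had a lower log2 fold change than ARR15 in hdp3-2 and 0.942% had one in asil1-2. For ARR7 these shares were 1.53% and 1.17%. In whole seedlings, fewer cells that express a gene and less RNA per cell cannot be told apart.

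**Figure D3:**
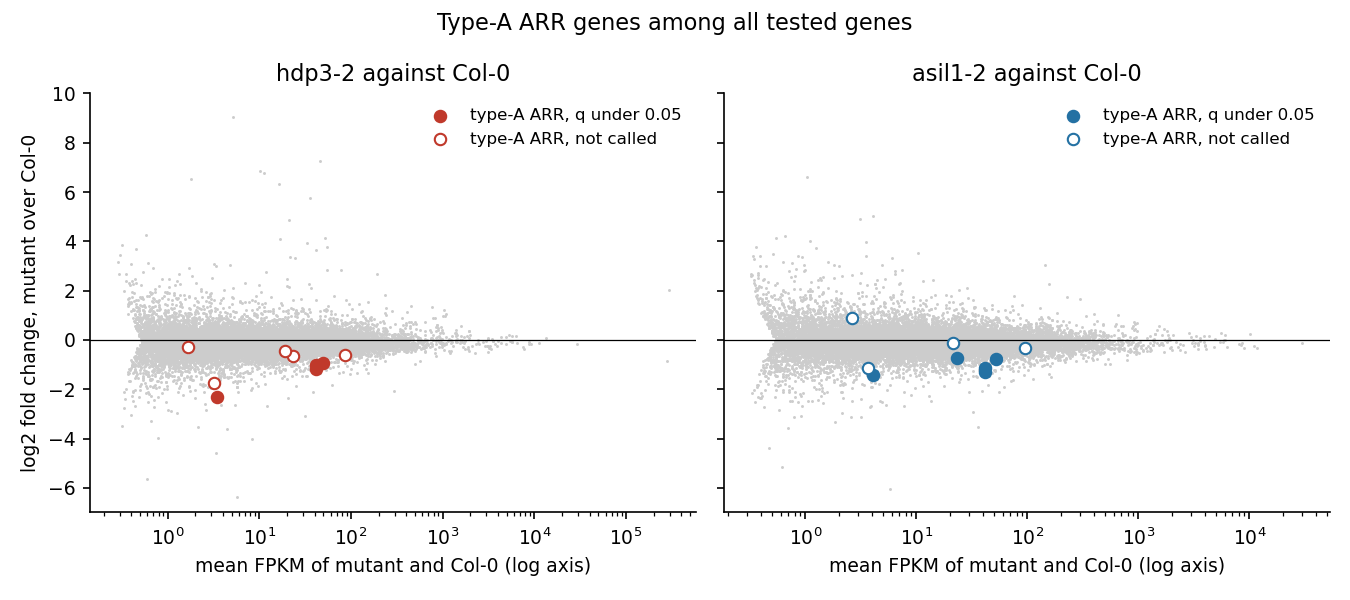
Log2 fold change over Col-0 against the mean FPKM of mutant and Col-0 (log axis) for all tested genes with a level above 0 in both genotypes (grey), with the type-A ARR genes in red for hdp3-2 and blue for asil1-2. Filled points are called at a q under 0.05, and all of these lie below 0. Their place among genes of like level was not measured.

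The mutants were then compared with each other through the difference of their log2 fold changes, hdp3-2 minus asil1-2, by a z test over 19977 genes with Benjamini-Hochberg adjustment, which calls 0.13% of all genes. None of the 9 tested members passed this z test, with an adjusted p of 1.000 for each, and 0 had an unadjusted p under 0.05. The difference was 0.12 for ARR7, with a 95% interval from -0.67 to 0.92, 0.14 for ARR6 (-0.63 to 0.92) and 0.08 for ARR5 (-0.69 to 0.85). For ARR9 it was -0.19 (-0.92 to 0.53) and for ARR15 -0.92 (-2.73 to 0.88), so a difference of 2-fold in either mutant's favour lies outside the interval for ARR5, ARR6, ARR7 and ARR9 but not for ARR15. ARR3 had the widest gap, at -1.17 (-2.81 to 0.47), and ARR4, ARR8 and ARR16 had -0.30 (-1.03 to 0.43), -0.33 (-1.09 to 0.42) and -0.60 (-2.44 to 1.24). The test counts the shared Col-0 error in both fold changes, which makes the intervals too wide. Its SEs also come from the authors' statistic, while the calls against Col-0 rest on their deposited p. Read as a standard normal value, that statistic called 1 member against Col-0 in hdp3-2 and 2 in asil1-2, so the z test is stricter than those calls. With the summed variance multiplied by 0.5, 0 members passed and 1, ARR3, had an unadjusted p under 0.05 in the z test. That setting called 125 of all genes, against 26 in the main z test.

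The genes of the family lie apart from each other, and the sequences in front of them were read to see what the members that fell share. In the TAIR10.1 reference, with positions counted from 1, chromosome 1 carries 4 members, chromosome 2 carries 2, chromosome 3 carries 3 and chromosome 5 carries 1. ARR7 spans 6577833 to 6579314 on chromosome 1 and ARR15 28131447 to 28133025 on the same chromosome, both on the minus strand. ARR6 spans 25252007 to 25254318 on chromosome 5 (minus strand), ARR5 17758427 to 17760950 on chromosome 3 (minus strand) and ARR9 21109059 to 21111567 on chromosome 3 (plus strand). Type-B ARR proteins bind the core motif AGATT in vitro. An extended pattern, AAGATNTT with N standing for any base, was taken beside it. Both were searched on both strands in the 300 bases before the annotated start of each gene, a core match inside an extended one being counted for both. The annotated start is that of TAIR10.1. For ARR4, ARR9, ARR15 and ARR16 it lies more than 300 bases upstream of the start in the authors' data, at 21109059 against 21109614 for ARR9. For these members the window is therefore not the stretch directly before the authors' start. No exon of another gene overlaps these windows for any member.

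The windows of the 5 members called in either mutant are printed 5′ to 3′ on the strand of the gene, the last base being the one before the annotated start, with every base of a core or extended match in capitals.
ARR6, chr5:25254319-25254618, minus strand: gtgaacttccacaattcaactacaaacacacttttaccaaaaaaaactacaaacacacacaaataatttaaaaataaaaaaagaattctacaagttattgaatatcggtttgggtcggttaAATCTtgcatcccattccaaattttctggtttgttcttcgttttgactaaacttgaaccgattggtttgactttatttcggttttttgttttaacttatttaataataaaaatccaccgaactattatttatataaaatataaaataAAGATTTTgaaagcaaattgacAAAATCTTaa
ARR7, chr1:6579315-6579614, minus strand: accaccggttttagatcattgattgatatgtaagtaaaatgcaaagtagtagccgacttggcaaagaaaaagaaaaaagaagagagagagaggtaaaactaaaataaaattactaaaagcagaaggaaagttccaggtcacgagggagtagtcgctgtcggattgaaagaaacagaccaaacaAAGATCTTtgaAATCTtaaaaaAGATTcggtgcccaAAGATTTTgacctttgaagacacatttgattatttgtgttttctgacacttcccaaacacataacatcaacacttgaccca
ARR15, chr1:28133026-28133325, minus strand: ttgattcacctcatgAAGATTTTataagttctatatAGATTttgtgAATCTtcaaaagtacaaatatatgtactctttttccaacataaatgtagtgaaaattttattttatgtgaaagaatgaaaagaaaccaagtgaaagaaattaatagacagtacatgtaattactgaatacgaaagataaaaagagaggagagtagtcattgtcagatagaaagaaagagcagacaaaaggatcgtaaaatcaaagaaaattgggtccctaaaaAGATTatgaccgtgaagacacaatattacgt
ARR9, chr3:21108759-21109058, plus strand: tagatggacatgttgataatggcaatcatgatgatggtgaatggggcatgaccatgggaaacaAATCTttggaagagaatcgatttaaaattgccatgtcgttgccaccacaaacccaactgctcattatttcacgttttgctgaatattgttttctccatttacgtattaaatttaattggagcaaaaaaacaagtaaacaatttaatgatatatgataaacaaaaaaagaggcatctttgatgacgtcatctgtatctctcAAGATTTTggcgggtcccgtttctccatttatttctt
ARR5, chr3:17760951-17761250, minus strand: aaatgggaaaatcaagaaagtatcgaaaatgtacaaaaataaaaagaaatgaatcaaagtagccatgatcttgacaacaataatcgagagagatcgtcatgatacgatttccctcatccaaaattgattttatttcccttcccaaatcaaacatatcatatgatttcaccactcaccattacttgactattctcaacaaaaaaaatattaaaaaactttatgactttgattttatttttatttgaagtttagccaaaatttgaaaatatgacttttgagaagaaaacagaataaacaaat

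All 4 members that fell in both mutants have a match of both motifs in this window. ARR6 has 3 core and 2 extended matches, ARR7 has 3 and 2, ARR15 has 4 and 1, and ARR9 has 2 and 1. ARR5, which fell in asil1-2, has neither within 300 bases. Of the members not called, ARR16 has 2 core and 1 extended match, ARR8 has 1 and 2, ARR3 has 1 core match, and ARR4 and ARR17 have none. Over the family, 6 of 10 windows hold the extended motif and 7 of 10 the core motif, beside 14.3% and 70.7% of the 27443 windows of the same length before all nuclear protein-coding genes. At least 2 core matches were found in 5 members and in 35.8% of all windows, and at least 3 in 3 members and 13.8%. At least 4 were found in 1 member and 4.73% of all windows. The share of all windows that hold both motifs was not counted. These counts describe letters in a window: they show neither binding nor a part of the motif in the differences of level.

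**Figure D4:**
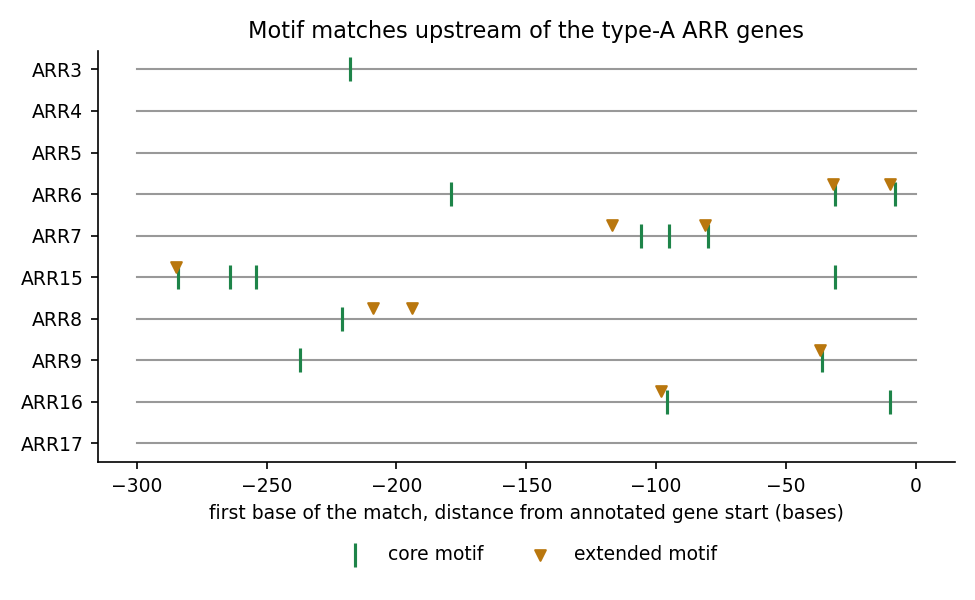
Position of each match, as the distance of its first base from the gene start annotated in TAIR10.1, in the 300 bases upstream of the 10 type-A ARR genes. Green bars are the core motif and brown triangles the extended motif, and ARR4, ARR5 and ARR17 have no match.

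The members are similar enough in coding sequence that reads could in principle be shared. Aligned over their whole coding sequences, gaps counted as mismatches, ARR5 and ARR6 are 78.8% identical, ARR16 and ARR17 78.0%, ARR8 and ARR9 77.5%, ARR7 and ARR15 70.6%, and ARR3 and ARR4 52.8%. The longest run of bases shared exactly by the transcripts of any 2 members is 41, between ARR3 and ARR4 and between ARR8 and ARR9. It is 20 for ARR5 with ARR6 and 19 for ARR7 with ARR15. Neither read length nor the handling of reads with several matches is known here, and sharing between members was not tested.

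The rest of the cytokinin pathway held calls in both directions. Of 70 genes on 10 lists by role, 52 were tested in hdp3-2, where 2 rose and 3 fell, 3.85% and 5.77% of those tested, beside 1.3% and 1.78% of all genes. In asil1-2, 53 were tested, 3 rose and 8 fell, 5.66% and 15.1%, beside 2.71% and 5.72% of all genes. The median log2 fold change over the tested genes of these lists was -0.01 in hdp3-2 and -0.13 in asil1-2, beside -0.06 and -0.08 for all genes.

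Among the receptors, none of 3 was called in hdp3-2 and 1 rose in asil1-2. AHK2 (AT5G35750), a histidine kinase that senses cytokinin, had 22.7 FPKM in hdp3-2, against 14.7 FPKM in Col-0, and 21.5 FPKM in asil1-2, against 14.9 FPKM in Col-0. It rose in asil1-2 with a log2 fold change of 0.52 ± 0.24 and a q of 0.0322 in the authors' deposited table. In hdp3-2 its value was 0.63 ± 0.28, and with an unadjusted p of 0.00155 in the authors' deposited table its q lay just above the threshold. AHK3 and AHK4 stayed between -0.13 and 0.16 in both mutants.

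No phosphotransfer protein and no type-B ARR was called in either mutant by the authors' Cuffdiff test. Of the 5 phosphotransfer genes tested, AHP4 (AT3G16360) had the smallest p, with a log2 fold change of -0.99 ± 0.53 in hdp3-2 and -0.92 ± 0.48 in asil1-2, and was the 1 gene of the list with an unadjusted p under 0.05 in each. Of the 11 type-B ARR genes 6 were tested, and 0 had an unadjusted p under 0.05 in either mutant. Their log2 fold changes ran from -0.36 to 0.39 in hdp3-2 and from -0.25 to 0.15 in asil1-2. ARR1 (AT3G16857), which was shown to activate type-A genes, had 66.7 FPKM in hdp3-2, against 50.8 FPKM in Col-0, and 54.9 FPKM in asil1-2, against 51.7 FPKM in Col-0. The type-C genes ARR22 and ARR24 were listed at 0 throughout.

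The KISS ME DEADLY genes encode F-box proteins that target type-B ARRs for breakdown. KMD2 (AT1G15670) rose in hdp3-2, with a log2 fold change of 0.73 ± 0.30 and a q of 0.0272 in the authors' deposited table, and had 0.39 ± 0.26 in asil1-2. KMD3 (AT2G44130) and KMD4 (AT3G59940) fell in asil1-2, with log2 fold changes of -0.88 ± 0.31 and -0.61 ± 0.25. In hdp3-2 they had -0.67 ± 0.38 and -0.17 ± 0.30. The list thus held calls in both directions.

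Hormone synthesis genes had no call in either mutant by the authors' Cuffdiff test, with 12 of 20 tested in hdp3-2 and 13 in asil1-2. Of these, 2 and 3 had an unadjusted p under 0.05 in that test, all with a lower level. Among all tested genes, 8.43% in hdp3-2 and 13.5% in asil1-2 had such a p and a lower level. IPT5 (AT5G19040), which makes the first cytokinin intermediate, had the smallest p of the list over both mutants, in hdp3-2, with 2.20 FPKM there, against 4.18 FPKM in Col-0, and a q of 0.131 in the authors' deposited table. Its log2 fold change was -0.93 ± 0.46 in hdp3-2 and -0.43 ± 0.39 in asil1-2.

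Among 9 tested genes for breakdown and conjugation, 1 fell in hdp3-2, and 2 fell and 1 rose in asil1-2. UGT73C5 (AT2G36800), a glucosyltransferase that also acts on brassinosteroids, fell in both, with log2 fold changes of -1.05 ± 0.33 in hdp3-2 and -1.65 ± 0.31 in asil1-2. CKX7 (AT5G21482), a cytosolic cytokinin oxidase, fell in asil1-2 by 0.68 on the log2 scale (SE 0.27), and its value in hdp3-2 was -0.53 ± 0.31. UGT85A1 (AT1G22400), which glucosylates zeatin, rose in asil1-2 by 0.76 ± 0.25 and had 0.57 ± 0.29 in hdp3-2. The transporter gene PUP14 (AT1G19770), which takes up cytokinin from the cell's surroundings, rose in asil1-2 by 0.49 ± 0.24, with 0.29 ± 0.28 in hdp3-2.

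Of 5 other genes induced by cytokinin, 1 rose and 2 fell in hdp3-2, and 3 fell and 0 rose in asil1-2. GATA22 (AT4G26150) and GATA21 (AT5G56860) encode factors that promote greening and respond to cytokinin, light and nitrate. GATA22 had 9.19 FPKM in hdp3-2, against 19.2 FPKM in Col-0, and 6.03 FPKM in asil1-2, against 19.6 FPKM in Col-0. It fell in both mutants, with log2 fold changes of -1.06 ± 0.32 and -1.70 ± 0.30 in hdp3-2 and asil1-2. GATA21 fell in asil1-2 (-1.25 ± 0.26) and had -0.50 ± 0.29 in hdp3-2. EXPA1 (AT1G69530), a cell wall expansin, fell in hdp3-2 (-0.79 ± 0.29) and in asil1-2 (-1.11 ± 0.24). MEE3 (AT2G21650), of the RADIALIS-like MYB family, rose in hdp3-2, at 34.1 FPKM against 7.71 FPKM in Col-0, and had 7.45 FPKM in asil1-2, against 7.86 FPKM in Col-0. The difference between the mutants for MEE3, 2.22 ± 0.60 on the log2 scale, had an adjusted p of 0.103 in the z test and of 7.25e-05 with the summed variance multiplied by 0.5. Of the 6 cytokinin response factors, the authors' Cuffdiff test called 0 in hdp3-2, with 1 at an unadjusted p under 0.05, and CRF2 (AT4G23750) fell in asil1-2 (-0.82 ± 0.27).

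**Figure D5:**
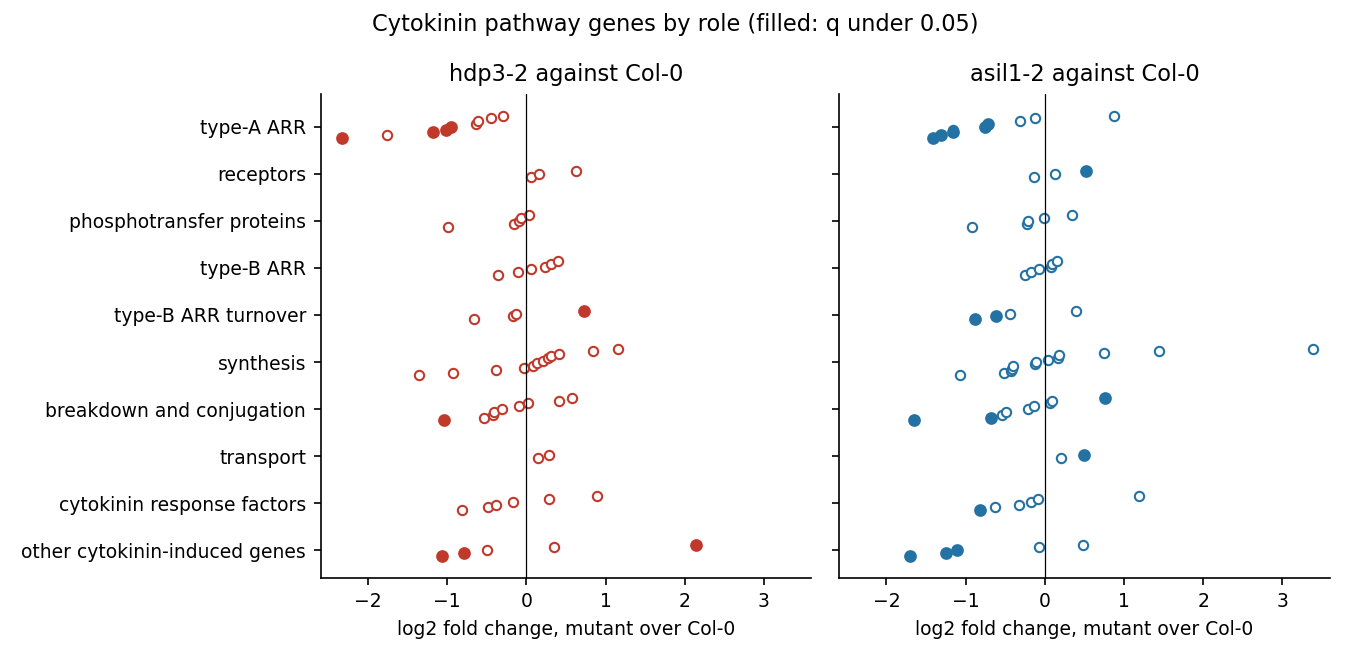
Log2 fold change over Col-0 of the tested genes of each cytokinin list in hdp3-2 (left, red) and asil1-2 (right, blue), 1 point per gene, filled where the q was under 0.05. The type-A ARR row holds 4 filled points left of 0 in hdp3-2 and 5 in asil1-2, and the other rows together hold 3 left and 2 right of 0 in hdp3-2 and 8 left and 3 right in asil1-2, with most of those on the left among the turnover, breakdown and other cytokinin-induced rows.

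Markers of the organs in a seedling were looked at beside these values. In hdp3-2 the authors' Cuffdiff test called none of the 5 leaf, 6 root and 1 tested meristem markers, with 0 at an unadjusted p under 0.05, and their log2 fold changes ran from -0.17 to 0.07 for leaf and from -0.30 to 0.45 for root. In asil1-2 the leaf markers ran from -0.43 to 0.25 and neither they nor the 2 tested meristem markers held a call, and 1 root marker, the root hair gene PRP1 (AT1G54970), rose by 1.13 ± 0.41. At an unadjusted p under 0.05 in asil1-2 there were 1 leaf marker with a lower level, GLDP1, and 2 root markers with a higher one, PRP1 and EXPA7. The root markers summed to 907 FPKM in hdp3-2, against 1082 FPKM in Col-0, and to 1050 FPKM in asil1-2, against 1102 FPKM in Col-0, most of it from the single gene PYK10. The other 5 root markers summed to 87.2 FPKM in hdp3-2, against 79.6 FPKM in Col-0, and to 103 FPKM in asil1-2, against 81.1 FPKM in Col-0, with a higher value for 3 of 5 in hdp3-2 and 5 of 5 in asil1-2. The part of organ make-up in the type-A ARR values was not tested.

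The genes with the pattern most like a member were looked for around ARR7, which had the largest statistic. Likeness was the distance between the pairs of log2 fold changes in hdp3-2 and asil1-2, over 18241 genes with at least 1 FPKM in each genotype, so it rests on only 2 values that share Col-0. The closest was AT2G37100, at -1.18 in hdp3-2 and -1.30 in asil1-2, called in both. Next came AT1G63390, at -1.20 and -1.25, which was called in neither, and RVE1 (AT5G17300), a morning-phased MYB factor tied to the clock, at -1.22 and -1.36, called in both. Within a distance of 0.2 there were 21 genes.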

How the data were processed

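TopHat2, Cufflinks, Cuffdiff, deepTools and the build TAIR10 are named in the submitters' processing notes, without versions or options. The authors deposited 1 table per mutant in the column layout of Cuffdiff, with 1 FPKM value per genotype. The authors' test statistic was deposited as a signed score. Their p-value and q-value columns are used as deposited, per the file headers, with 5e-05 as the smallest p. Neither counts nor values per library were used, so depth is unknown and no own test was made between mutant and Col-0. Log2 fold changes were computed from the FPKM columns, without a pseudocount, and the SE is the fold change over the statistic. Read as a normal deviate, the deposited p lies further from 0 than the statistic. The median factor was 1.41 for hdp3-2 and 1.42 for asil1-2 (absolute statistic between 0.3 and 3). Either the SEs are wide for these p-values or the p-values are small for these SEs, and which holds was not tested. The z test of the difference was also run on simulated fold changes whose errors were drawn from these same SEs. That run cannot show whether the SEs are right. The members, gene lists and tests were chosen with earlier results of these data known. Named genes were all members, every called gene of the cytokinin lists, for a list without a call the tested gene with the smallest p, and the 3 genes closest to ARR7. Upstream windows were read from the RefSeq genome and annotation (TAIR10.1), since its gene spans overlap those of the files for all 26687 protein-coding genes compared, though 14% share both start and end. Each count of calls was also made at a q under 0.01, with absolute log2 fold changes of at least 1, with FPKM minimums of 1 and 10, with a recomputed adjustment and with a normal reading of the statistic. Fold changes were repeated with pseudocounts of 0.1 and 1 FPKM and centred on the median gene, and the z test with its variance multiplied by 0.5, centred, and with at least 1 FPKM throughout. Software was SciPy 1.17.1, NumPy 2.4.6, pandas 2.3.3, Biopython 1.88 and matplotlib 3.10.9 under Python 3.11.15.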

Additional observations from a re-analysis of the deposited data

How the results depend on the processing

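No paired analysis was possible because the tables hold 1 value per genotype, with no column per library, and for the same reason no library could be left out. The counts of type-A ARR calls, 4 in hdp3-2 and 5 in asil1-2, stayed within 1.5 times under every alternative but the normal reading of the statistic and, in asil1-2, the minimum log2 fold change of 1. With a normal reading of the statistic, 1 member (ARR7) was called in hdp3-2 and 2 (ARR6 and ARR7) in asil1-2, and 1 and 4 genes of the other cytokinin lists; the tables had 147 and 438 calls in all, instead of 622 and 1702. With a minimum log2 fold change of 1, 3 members (ARR6, ARR7 and ARR15) were called in each mutant, and 3 and 4 genes of the other lists. All calls then numbered 274 in hdp3-2 and 453 in asil1-2. At a q under 0.01, 3 members in hdp3-2 and 4 in asil1-2 were called, ARR15 being lost in both, as it was with a minimum of 10 FPKM, and 7 genes of the other lists in asil1-2 instead of 11. All calls numbered 341 in hdp3-2 and 918 in asil1-2 at a q under 0.01, and 506 and 1338 with a minimum of 10 FPKM. The member median ran from -0.95 to -0.88 in hdp3-2 and from -0.76 to -0.67 in asil1-2 over the pseudocounts and the centring, and no tested member changed sign or moved by more than its SE. In the z test 0 members passed under each alternative. Over all genes, that test called 26 in its main form and 125 with the variance multiplied by 0.5. It called 27 when centred and 23 with at least 1 FPKM throughout.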
